A study of Mus musculus with 6 samples.

Results

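The genes described here encode markers that haematopoietic stem cells share with endothelium, the inner lining of blood vessels. They are Procr, Tek, Tie1, Esam, Robo4, Emcn, Cd34, Fgd5, Clec1a and Cd93, taken by symbol from the array annotation. All 10 genes had at least 1 probe set with their symbol alone, which gave 15 probe sets of the 45037 on the array, for 10 of 18193 named genes. The RNA came from bone marrow cells sorted for the absence of lineage markers and the presence of Sca1, a gate that enriches stem cells and early progenitors. Wild-type mice (WT) were compared with mice lacking both Nr4a1 and Nr4a3 (DKO), a pair of nuclear receptors of the NR4A family, to find transcripts that depend on them. DKO mice were bred from the single knockouts in a mixed C57BL/6 and 129SvJ background, and the labels give no strain for the WT mice. Each group had 3 Affymetrix arrays, each with RNA pooled from the sorted cells of 10 to 20 mice aged 2 to 3 weeks. The knockout is carried by the whole animal, so the blood cells and their marrow surroundings both lack the 2 receptors.

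Blood and endothelium arise from a common embryonic source, and adult stem cells keep part of the endothelial surface. Such proteins include receptors for vessel growth factors, junction proteins and heavily sugar-coated sialomucins, and several of them serve to purify stem cells by antibody. In DKO cells the markers detected on these arrays had lower signals, and of these only Procr and Emcn were past the threshold of the test. Neither passed when WT replicate 1 was left out. The median log2 difference (DKO minus WT, on the log2(signal + 16) scale used for every difference here) of the 9 genes bright enough to be tested was -1.07, against -0.01 over all 11529 genes tested. In each of the 9, every DKO array lay below every WT array, which was so for 11.3% of all genes tested. Tie1 passed the filter on low values only through its WT signals and is therefore lower by selection. The other 8 genes had both group means above the limit of that filter, with a median of -1.01 and no overlap in 8 of 8, against a median of -0.01 and 11% of the 10923 genes that met the same condition. By probe set a lack of overlap was seen in 12 of 13 tested, against 11.1% of all probe sets. Procr and Emcn fell, 2 of the 9, and 0 rose, where 0.633% of all genes tested fell and 1.08% rose. Clec1a was near the background. Fewer cells of a type and less RNA per cell cannot be told apart in bulk RNA, here or in any result that follows.

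Promoter sequence is shown for Procr and Emcn, the genes that fell, and for Cd34, the sialomucin relative of Emcn that did not pass the test. RefSeq windows (assembly GRCm38.p6, 250 bases before to 50 after a transcript start) were at hand for 7 of the 10 genes. Esam, Clec1a and Cd93 were not analysed here. Each line gives the plus strand, which is the coding strand of all 3 genes, from the start of the window to the base before the annotated gene. The positions are chr2:155750967-155751124 for Procr, chr3:137340828-137341061 for Emcn and chr1:194938571-194938820 for Cd34. Capitals mark matches to the motifs named below.
Procr: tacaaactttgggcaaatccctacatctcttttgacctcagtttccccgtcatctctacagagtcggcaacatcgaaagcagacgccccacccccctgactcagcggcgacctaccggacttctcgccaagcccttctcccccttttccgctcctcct
Emcn: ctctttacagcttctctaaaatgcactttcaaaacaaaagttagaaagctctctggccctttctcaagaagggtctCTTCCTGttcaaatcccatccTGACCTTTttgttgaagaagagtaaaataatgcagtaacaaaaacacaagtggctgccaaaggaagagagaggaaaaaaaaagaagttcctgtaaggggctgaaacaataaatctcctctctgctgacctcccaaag
Cd34: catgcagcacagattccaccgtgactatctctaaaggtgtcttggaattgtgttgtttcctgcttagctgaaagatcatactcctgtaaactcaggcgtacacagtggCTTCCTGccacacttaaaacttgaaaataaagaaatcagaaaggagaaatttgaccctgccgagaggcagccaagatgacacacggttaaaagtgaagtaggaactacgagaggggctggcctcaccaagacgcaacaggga

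The motifs searched on both strands were the NBRE AAAGGTCA, to which NR4A receptors bind as monomers, the motif AGATAA of GATA factors, the motif CAGGAAG of ETS factors, the motif TGTGGT of RUNX factors and the E-box CAGCTG. The Emcn window was the 1 of 7 with an NBRE, read on the reverse strand as TGACCTTT and beginning 153 bases before the start, and 1.51% of all 32851 promoter windows held one. The ETS motif stood in the windows of Emcn, Cd34 and Robo4, 3 of 7, against 13.3% of all windows. In Emcn and Cd34 it lay on the reverse strand, as CTTCCTG. The E-box stood in those of Procr and Robo4, against 16.3%, and in Procr it lies past the printed stretch, 34 bases before the start. Tek held the GATA motif (11.2% of all windows), and none of the 7 held the RUNX motif (16.8%). No matches overlapped. Such matches describe the letters of these windows and do not show binding.

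Nr4a1 signals were 1110.5, 1269.4 and 816.3 in WT and 8.0, 22.4 and 33.8 in DKO, so this transcript follows the labels. The 3 probe sets of Nr4a3 were left out as near background by their mean over all arrays and do not check them. The panleukocyte gene Ptprc was bright on every array at its brightest probe set (8130 to 11590), and the sort marker Ly6a had no probe set with its symbol alone. Median signals per array lay between 91.7 and 122.6, and no depth exists for arrays, whose number limits the precision. The lowest 40% of probe sets by mean log2 level, below a signal of about 53.2, were left out of the test as near background. Bright here means the upper 25% by mean level, above a signal of about 473. Of the 15 probe sets 8 were bright, 5 intermediate and 2, both of Clec1a, near background. Signals of different probe sets depend on their probes, so their order is not an order of transcript levels.

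**Figure D1:**
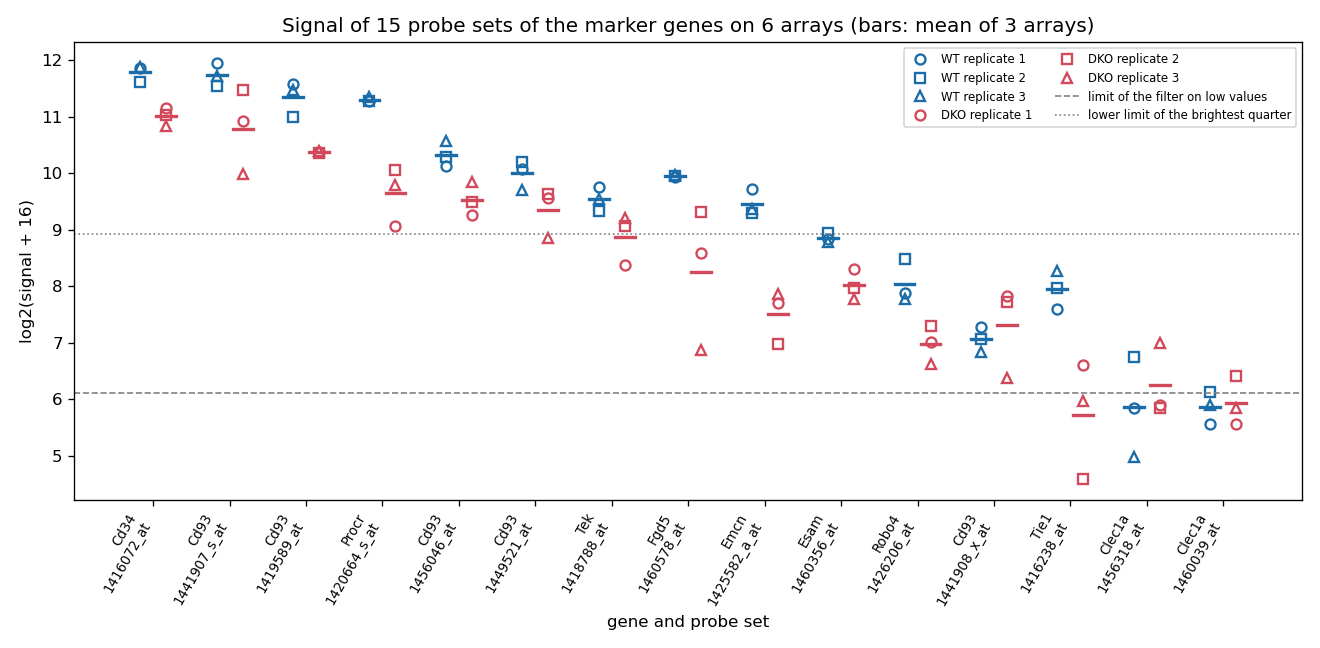
Points show log2(signal + 16) of the 15 probe sets on each of the 3 WT and 3 DKO arrays, and short bars the mean of 3 arrays. The dashed line is the limit of the filter on low values and the dotted line the level above which a probe set is called bright. In 12 of the 15 probe sets the DKO points lie below all WT points, and the exceptions are both probe sets of Clec1a and 1441908_x_at of Cd93.

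Procr is the endothelial protein C receptor (EPCR), which presents the anticoagulant protein C to its activator on vessels and marks the most primitive stem cells in mouse marrow. Its signals were 2464.5, 2470.9 and 2601.9 in WT and 520.8, 1055.6 and 874.3 in DKO. The WT pools were nearly alike, with a coefficient of variation of 3.09%, whereas the DKO pools varied by 33.3% and all 3 lay far below the lowest WT pool. Procr fell by 1.66 on the log2 scale (-1.66 ± 0.27, SE, limma, adjusted p = 0.0111), to 32.5% of the WT mean. Leaving out single arrays gave differences of -1.87 to -1.37 and kept the call except without WT replicate 1 (adjusted p = 0.0547). Without an intensity trend in limma the call was also lost (adjusted p = 0.0893). The suffix of this probe set, _s_at, denotes probes that can match transcripts of more than 1 gene.

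Emcn encodes endomucin, a sialomucin of veins and capillaries that also marks stem cells. It gave 828.2, 610.5 and 648.4 in WT and 193.7, 109.9 and 215.6 in DKO. Emcn fell to 24.9% of the WT mean (-1.95 ± 0.35, limma, adjusted p = 0.0206), and the gap between the groups was wider than the whole range of either. Leaving out WT replicate 1 ended the call (adjusted p = 0.111), as did leaving out DKO replicate 1, 2 or 3 (adjusted p = 0.0672, 0.0685 and 0.0566), at differences of -2.12 to -1.68. It was also lost without an intensity trend (adjusted p = 0.0594).

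Cd34, a sialomucin of progenitors and endothelium that binds selectins once it carries the right sugars, was bright in both groups. Its signals were 3730.6, 3136.3 and 3760.8 in WT and 2269.4, 2079.6 and 1820.0 in DKO. All DKO pools were below all WT pools, but the log2 difference of -0.78 ± 0.19 did not pass over all probe sets (limma, adjusted p = 0.0672). It passed with quantile normalization (-0.83, adjusted p = 0.0471) and with array quality weights (-0.78, adjusted p = 0.0481). Within each array Emcn was lower relative to Cd34 in DKO than in WT. The log2 ratio of Emcn to Cd34 was -2.15, -2.33 and -2.51 in the WT pools and -3.45, -4.06 and -2.99 in the DKO pools, without overlap. The difference between these ratios was not tested.

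Tek (TIE2) and Tie1 are a pair of receptor tyrosine kinases. Tek binds the angiopoietins and, on stem cells, is linked to quiescence in the niche, while Tie1 binds no angiopoietin on its own and modulates Tek. Tek signals were 847.7, 627.3 and 734.5 in WT and 315.7, 519.6 and 574.1 in DKO. The groups did not overlap, but DKO replicate 3 came close to WT replicate 2, and the difference of -0.66 ± 0.31 did not pass (limma, adjusted p = 0.357). It did not pass with any array left out either, at -0.83 to -0.41. Tie1 was dimmer, with 178.6, 235.6 and 294.3 in WT and 81.4, 8.1 and 46.6 in DKO, and 2 of its DKO values lay under the limit of the filter. Its difference of -2.23 ± 0.54 did not pass (limma, adjusted p = 0.0744). Its size and its rank among the genes depended on the offset, at -2.82 with an offset of 1 and -1.50 with an offset of 64, where Emcn, Procr and Fgd5 were lower (-1.70, -1.60 and -1.51). The log2 ratio of Tie1 to Tek overlapped between the groups, from -2.15 to -1.27 in WT and from -4.47 to -1.77 in DKO.

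Robo4 and Esam are immunoglobulin superfamily proteins of endothelial contacts. Robo4, an endothelial member of the roundabout receptors, helps stem cells lodge in the marrow, and Esam sits at tight junctions and on long-term stem cells. Robo4 signals were 220.9, 340.0 and 203.5 in WT and 113.9, 140.9 and 82.0 in DKO. Esam signals were 439.6, 474.1 and 426.8 in WT and 302.2, 235.3 and 203.4 in DKO. In both genes the DKO pools lay below the WT pools, and neither difference passed, at -1.07 ± 0.40 for Robo4 (limma, adjusted p = 0.246) and -0.83 ± 0.32 for Esam (limma, adjusted p = 0.259). Both are of intermediate signal, and their log2 ratio overlapped between groups, between -1.01 and -0.46 in WT, between -1.29 and -0.68 in DKO. In the RefSeq gene order Robo3 and Msantd2 lie between Robo4 and Esam. Robo3 was at 0.22 ± 0.51 and Msantd2 at -0.66 ± 0.33 (limma, adjusted p = 0.896 and 0.384). Of the 20 nearest coding neighbours of the 10 genes, looked up after the values had been seen, 12 were tested. Their median difference was -0.04, with 7 of 12 lower and 0 past the limma threshold.

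Fgd5 is no surface protein but an exchange factor of the small GTPase Cdc42, active inside endothelial cells, and its locus has served to mark stem cells genetically. Its signals were 968.8, 980.8 and 991.5 in WT and 368.5, 620.9 and 101.2 in DKO. The WT pools varied by 1.16%, the lowest coefficient of variation among the 9 tested genes, while DKO varied by 71.5% and its highest value was 6.14 times its lowest. The difference of -1.70 ± 0.50 is near that of Procr, yet with this spread it did not pass (limma, adjusted p = 0.135). It was -1.01 without DKO replicate 3 (adjusted p = 0.237) and -2.23 without DKO replicate 2 (adjusted p = 0.0669).

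Cd93, a C-type lectin-like receptor of endothelium and early haematopoietic cells, known as the AA4.1 antigen, had 5 probe sets. The brightest by mean level, 1441907_s_at, read 3942.9, 2969.3 and 3366.0 in WT and 1926.1, 2815.0 and 998.4 in DKO (-0.95 ± 0.31, limma, adjusted p = 0.186). This probe set stands for Cd93 in the main counts by gene, and its DKO pools varied by 47.5%. Like that of Procr, its suffix denotes probes that can match transcripts of more than 1 gene. The next, 1419589_at, read 3059.8, 2016.3 and 2848.8 in WT and 1312.3, 1297.2 and 1332.0 in DKO. Here the DKO pools had a coefficient of variation of 1.33%, the groups were well apart, and the difference of -0.98 ± 0.22 narrowly missed the threshold (limma, adjusted p = 0.0518). It passed without WT replicate 2 (-1.16, adjusted p = 0.0191), with an offset of 64 (adjusted p = 0.0460), with a filter of 60% (adjusted p = 0.0421), with quantile normalization (adjusted p = 0.0497) and with array quality weights (adjusted p = 0.0238). The probe sets 1456046_at and 1449521_at were lower in DKO too, at -0.79 ± 0.26 and -0.65 ± 0.29, without passing. The fifth, 1441908_x_at, went the other way. It read 139.6, 117.4 and 98.9 in WT and 211.0, 194.5 and 66.9 in DKO (0.24 ± 0.48, limma, adjusted p = 0.871), and the groups overlapped. Its suffix denotes probes open to cross-hybridization, and the annotation ties it to the same cDNA sequence as 1441907_s_at, which was bright. So 4 of 5 Cd93 probe sets were lower with no overlap, and none passed.

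Clec1a, another C-type lectin-like receptor gene, was not measured well enough to compare. Its probe set 1456318_at read 41.7, 91.4 and 15.3 in WT and 43.7, 41.2 and 111.6 in DKO. The other, 1460039_at, read 31.3, 54.3 and 43.3 in WT and 31.3, 69.2 and 41.3 in DKO. Both overlapped between groups, at 0.39 ± 0.60 and 0.08 ± 0.49 when all probe sets were tested without a filter (limma, adjusted p = 0.876 and 0.980). A change in Clec1a was not detectable at this signal.

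**Figure D2:**
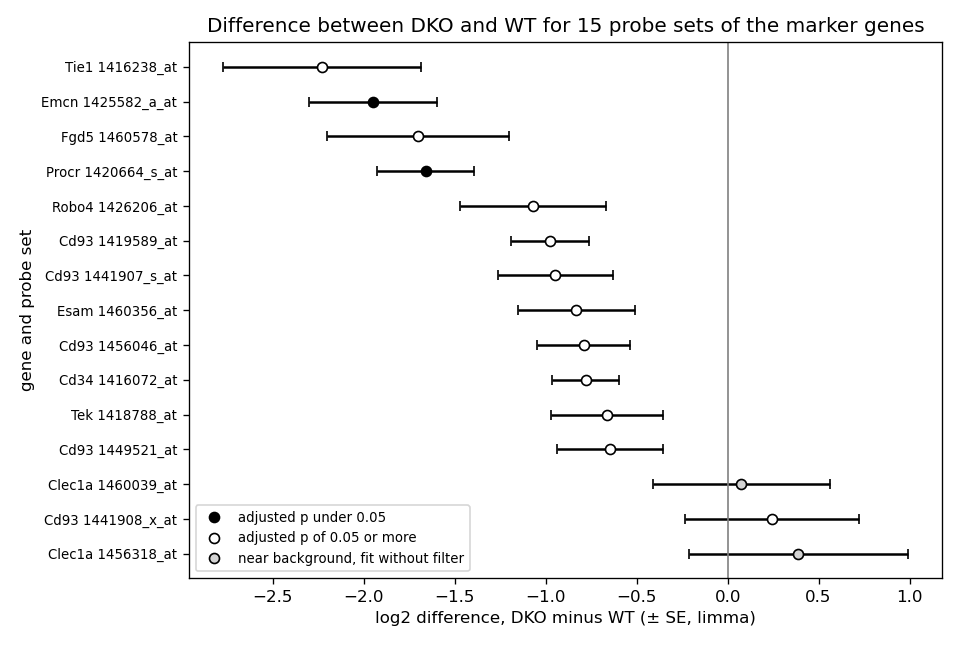
Points show the log2 difference, DKO minus WT, of each of the 15 probe sets, and bars its SE from limma (3 arrays per group). Filled black points passed the threshold, Emcn at -1.95 and Procr at -1.66. Open points did not pass, and grey points are the near-background probe sets of Clec1a, from the fit without a filter.

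The genes differed in size of change and in how they varied within groups. The 9 tested genes spanned -2.23 to -0.66, a range in which Tie1, Emcn, Fgd5 and Procr lay at -1.66 or below and the other 5 at -1.07 or above. The standard errors were 0.19 to 0.54. Neighbours in this order lay within 1 standard error of each other apart from Procr and Robo4, and differences between genes were not tested. Of all genes tested 50.8% were below 0 and 11.5% at or below -0.66. At unadjusted p under 0.05 were 8 of the 9, against 16.3% of all genes tested (limma). Tie1, which is lower by selection, is among these 8 and at the low end of the range. The coefficient of variation had a median of 14.3% in WT and 32.2% in DKO over the 9 genes. No single DKO pool was low throughout. DKO replicate 3 was the lowest DKO pool for 5 of the 9 genes, DKO replicates 1 and 2 for 2 genes each, and Procr and Tek were lowest in DKO replicate 1 while Emcn and Tie1 were lowest in DKO replicate 2. The median level of the 9 genes, each centred on its own mean over the 6 arrays, was 0.69, 0.80 and 0.48 in the WT pools and -0.49, -0.37 and -0.68 in the DKO pools.

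**Figure D3:**
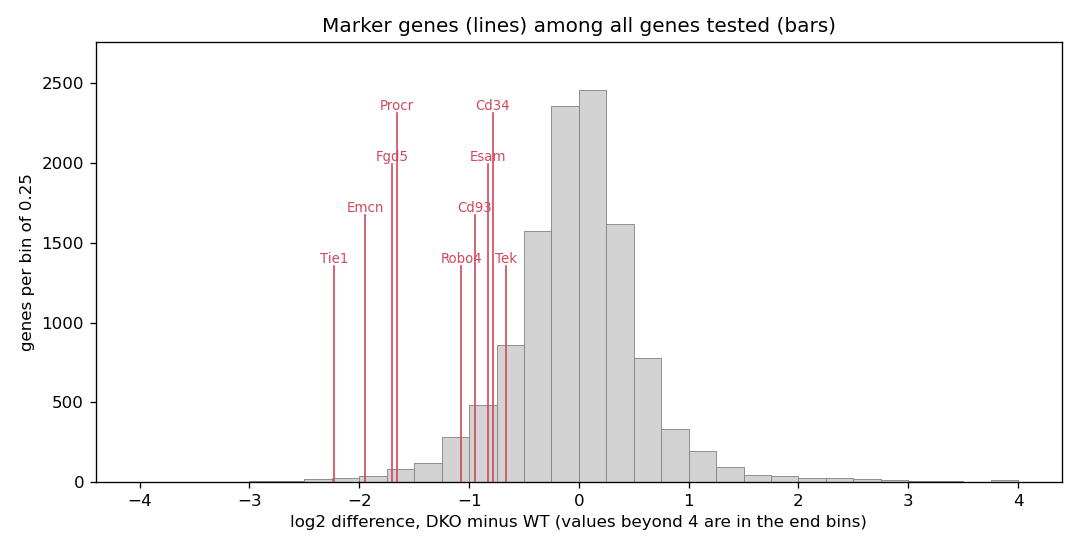
Bars count the 11529 genes tested by log2 difference, DKO minus WT, in bins of 0.25, each gene at its brightest probe set. Lines mark the 9 tested marker genes, which all lie left of 0, from Tie1 at -2.23 to Tek at -0.66. Tie1 passed the filter on low values only through its WT signals.

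Outside these genes, those whose values over the 6 arrays came closest to that median profile were Trim13, Dnajb4, Abcg3, Btrc and Rcan3. Likeness was the root mean square difference of centred log2 values, 0.12 to 0.14 for these 5 and 0.20 (Robo4) to 0.88 (Tie1) for the marker genes themselves. The 5 were picked as the closest among the 11529 genes tested. Their small values and their lower levels in DKO follow from that choice and are no separate support. Dnajb4, a co-chaperone gene, fell from a mean of 4826 to 2436 (-0.98 ± 0.18, limma, adjusted p = 0.0249) and Btrc, the substrate receptor of a ubiquitin ligase, from 1949 to 815 (-1.25 ± 0.22, limma, adjusted p = 0.0196). When single arrays were removed these calls survived 1 and 2 of the 6 removals. Trim13, Abcg3 and Rcan3, between -1.31 and -0.99, did not pass.

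The pathways around these receptors showed few calls. Of 13 tested genes of the angiopoietin and TIE pathway (16 listed, Tek and Tie1 not counted) 0 passed, with 8 lower and a median of -0.21. Every DKO array lay below every WT array in 3 of the 13, against 11.3% of all genes tested. Angpt1, the activating ligand of Tek, which stem cells make themselves, read 3997.6, 2770.2 and 3079.5 in WT and 2197.2, 2155.7 and 1220.0 in DKO. The groups did not overlap, and the difference of -0.85 ± 0.25 did not pass (limma, adjusted p = 0.144). Pik3r1, a regulatory subunit of PI3 kinase downstream of Tek, was at -0.37 ± 0.15 (limma, adjusted p = 0.278). Of 8 tested genes of the protein C pathway, 1 passed and it was higher. Coagulation factor V, F5, rose from 321.3, 653.0 and 134.9 to 2081.8, 2279.3 and 1384.2 (2.54 ± 0.45, limma, adjusted p = 0.0196), the opposite direction to Procr. Its call survived 2 of 6 removals of a single array, those of WT replicates 2 and 3. Proc itself, which encodes protein C, was near the background, and Thbd, thrombomodulin, the neighbour of Cd93 in the genome, was at 0.09 ± 0.48. The median of the 8 was 0.07, and 0 of the 8 had every DKO array below every WT array.

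Relatives of the marker genes by family did not pass in any of 3 lists. In each of these lists 0 tested genes had every DKO array below every WT array, against 11.3% of all genes tested. Among 11 tested genes of SLIT ligands, other ROBO receptors, their partners and the other FGD genes, 3 were lower and the median was 0.17. Fgd2, an FGD gene of antigen-presenting cells, was at 0.96 ± 0.35 and the ROBO partner Srgap2 at 0.83 ± 0.34 (limma, adjusted p = 0.226 and 0.297). The 3 SLIT ligand genes were near the background. Of 7 tested sialomucins and CD93 relatives 2 were lower, with a median of 0.09. The selectin ligand Selplg was at 0.83 ± 0.29 and the CD34 relative Podxl at 0.65 ± 0.38 (limma, adjusted p = 0.220 and 0.474). In Selplg and Podxl, as in Fgd2 and Srgap2, every DKO array lay above every WT array. A share of all genes is not given for that direction. Of 6 tested junction proteins and C-type lectins 3 were lower, with a median of 0.14. Cxadr was at -1.72 ± 0.82 and Olr1 at 1.79 ± 0.86 (limma, adjusted p = 0.366 and 0.374).

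Other surface genes of stem cells were compared in the same fit. Of 14 tested (18 listed) 0 passed, 10 were lower and the median was -0.29. Every DKO array lay below every WT array in 1 of the 14, Kit, against 11.3% of all genes tested. Kit, the stem cell factor receptor, read 2962.7, 2419.0 and 2954.3 in WT and 1967.7, 1826.7 and 1679.2 in DKO (-0.60 ± 0.19, limma, adjusted p = 0.166). Alcam, an adhesion protein, was at -0.72 ± 0.28 (limma, adjusted p = 0.261). Among 15 tested transcription factors known from both stem cells and endothelium 1 fell, 0 rose, 10 were lower and the median was -0.49. Every DKO array lay below every WT array in 6 of the 15, against 11.3% of all genes tested. Erg, an ETS factor that stem cells and endothelium both need, fell from 6933.4, 5568.1 and 6377.6 to 3203.5, 4060.7 and 3693.8 (-0.78 ± 0.17, limma, adjusted p = 0.0474). That call survived 1 of 6 removals of a single array, that of WT replicate 2, and 4 of 9 other alternatives (adjusted p = 0.0240 to 0.243).

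Of 14 tested endothelial markers (20 listed, none of the 10 described above among them) 0 passed, 9 were lower and the median was -0.35. Podxl, one of the 14, had every DKO array above every WT array. Egfl7, an endothelial secreted factor that blood progenitors also make, was the 1 of 14 with every DKO array below every WT array. Over all genes tested 11.3% were so. It was bright, at 1787.5, 2455.5 and 2438.1 in WT and 990.7, 1523.6 and 1142.5 in DKO, and did not pass (-0.87 ± 0.24, limma, adjusted p = 0.109). The 6 markers taken as defining were of intermediate signal. They were Cdh5, Kdr, Flt1, Cldn5, Plvap and Stab2, with WT means of 108 to 310 and DKO means of 84.8 to 403, and all 6 overlapped between groups. Their differences lay between -0.69 (Cdh5) and 0.53 (Stab2). Those of the other tested markers lay between -0.87 (Egfl7) and 0.65 (Podxl). The 6 are a choice from the 20 listed and do not stand for the whole list. The summed endothelial signal was 3987, 8121 and 7047 in the WT pools and 3833, 5923 and 4204 in the DKO pools. It differed 2.04-fold among the WT pools, and it includes Egfl7, which blood progenitors also make. The part of endothelial RNA in the lower signals of the genes described above was not tested. The summed signals of megakaryocyte and of stromal markers overlapped between groups, with 0 of 6 and 0 of 9 tested genes past the threshold. Of these genes 3 of 6 and 1 of 9 were lower, with medians of 0.19 and 0.48. In Itga2b and Pdgfra every DKO array lay above every WT array. Itga2b read 200.9, 99.8 and 176.1 in WT and 276.9, 259.0 and 232.8 in DKO. Pdgfra read 42.7, 103.5 and 60.5 in WT and 126.4, 139.6 and 111.4 in DKO.

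Markers of some mature blood cells moved with the groups. The summed signal of 9 mast cell and basophil markers was 409 to 982 in WT and 7179 to 9870 in DKO, and 5 of 7 tested rose. That of 10 T and NK cell markers was 742 to 1239 in WT and 8135 to 11719 in DKO, and 6 of 9 tested rose. Of all genes tested 1.08% rose. Among the markers that rose, Fcer1a, Cd3d, Cd3e and Gzmb passed the filter on low values only through their DKO signals. These are therefore higher by selection. B lineage markers summed to 2471 to 9169 in WT and 1704 to 2077 in DKO. Of 8 tested 0 passed, all 8 were lower and the median was -0.87. Every DKO array lay below every WT array in 2 of the 8, against 11.3% of all genes tested. The sums of neutrophil and monocyte markers (1 of 11, Ccr2, rose) and of erythroid markers (0 of 6 past the threshold) overlapped. The part of these cells in the lower signals of Procr, Emcn and the other marker genes was not tested. WT replicate 2 held the highest B lineage, neutrophil and monocyte, and erythroid sums. Without WT replicate 2 Procr and Emcn both passed, as with all arrays, and without WT replicate 1 neither passed. Leaving out a WT pool keeps the mast cell, basophil, T and NK cell signals of the DKO arrays in place. It does not show what part other cells had.

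**Figure D4:**
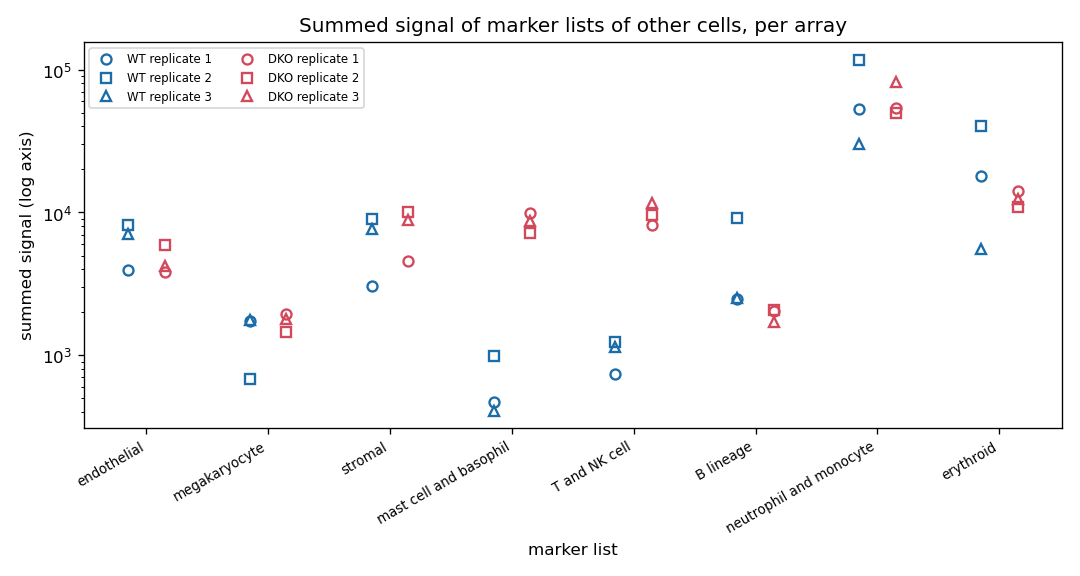
Points show, on a log axis, the summed signal of the marker genes of each other cell type on each of the 6 arrays, with the brightest probe set for each gene. Mast cell and basophil markers and T and NK cell markers are higher in all 3 DKO arrays. B lineage markers are lower in all 3 DKO arrays than in any WT array. Endothelial, megakaryocyte, stromal, neutrophil and monocyte, and erythroid markers overlap. WT replicate 2 is the highest array for the B lineage, neutrophil and monocyte, and erythroid lists.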

How the data were processed

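The deposited table holds 1 linear intensity (MAS5 signal) per probe set and array, and MAS5 is named in the submitters' processing notes without a version. The authors' scaling, a trimmed mean of 500 on every array, was kept. From 45101 probe sets 64 controls were left out, and genes were named only from probe sets with 1 symbol (34945). Signals became log2(signal + 16). After the lowest 40% by mean had been left out, 27022 remained. DKO was set against WT by limma 3.58.1 under R 4.3.3 (eBayes with an intensity trend, two-sided, no block), with Benjamini-Hochberg adjustment over all 27022 and a threshold of 0.05. "Fell" and "rose" mean past it. Errors are SE, and a gene is its brightest probe set. The fit was tested on simulated data. The pools are separate per the labels, so p-values measure the spread between pools. Coding neighbours, Egfl7, Ccr2, Itga2b, Pdgfra, Fcer1a, Cd3d, Cd3e and Gzmb were named after their values were seen. Otherwise named are the 10 genes, checks of the labels and sort, and the 5 nearest profiles. From each list up to 4 called genes are named, or else the 2 with the smallest p. For markers of other cell types the defining ones are named. Members, lists and motifs were chosen with earlier results of these data known. Alternatives were other offsets, filters, normalizations, weights, a replicate block, no trend, arrays left out and the mean over probe sets. Figures were drawn with matplotlib 3.10.9.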

Additional observations from a re-analysis of the deposited data

How the results depend on the processing

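Procr and Emcn were the 2 calls among the marker genes, and 370 probe sets were called in all (152 lower). With an array left out these counts ranged from 0 to 2 genes and from 104 to 469 probe sets, and 0 genes passed without WT replicate 1. Without an intensity trend 0 genes and 88 probe sets passed. When genes were fitted in place of probe sets, each at the mean of its probe sets, 4 passed, Procr, Tie1, Emcn and Cd34. Each of these has 1 probe set and kept its difference, so the fitted spread and the number of tests are what changed. Tie1 had passed the main filter only through its WT signals. The count of probe sets was 208 with no filter and 563 with array quality weights. Same-numbered arrays showed little common deviation (correlations 0.14, -0.03 and 0.05, and 3 of 6 arrays correlated best with their own number). With 3 arrays per group this cannot exclude a pairing by number, and the main fit used none. With a replicate block 2 genes and 312 probe sets passed. Median centring moved the median over all tested probe sets from -0.05 to 0.06 and the split of calls to 96 lower and 218 higher, against 152 and 218. The 12 probe sets that were lower stayed lower in every alternative in which they were tested. The sign turned only in probe sets without a call. With single arrays left out, Clec1a 1456318_at ranged from -0.054 (without WT replicate 3) to 0.84, 1460039_at from -0.16 (without DKO replicate 2; -0.074 without WT replicate 1) to 0.26, and Cd93 1441908_x_at from -0.016 (without DKO replicate 1) to 0.71. The causes were not tested.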
